A study of Mus musculus with 11 samples.

Results

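The Wnt signalling genes are 37 genes chosen by name: Wnt ligands, the enzymes and carriers that release them, their receptors, the cytoplasmic and nuclear proteins that pass the signal on, and feedback genes. All 37 were found among the 25121 genes of the deposited table. The libraries are poly(A)-selected RNA of macrophages that had been grown from mouse bone marrow and were held in the insert of a Transwell chamber above primary renal proximal tubular epithelial cells. In 5 libraries (replicates 2 to 6) the treatment was TGF-β1 (transforming growth factor β1, 5 ng/mL) with hemin (10 µM), the oxidised iron-porphyrin form of heme, for 72 h. In 6 libraries (replicates 1 to 6) it was TGF-β1 at 5 ng/mL for 72 h without hemin. TGF-β1, used to set up a profibrotic milieu, and the epithelial cells were thus common to both groups. No group without TGF-β1 and no group of macrophages cultured alone is described, so a response of the macrophages themselves cannot be told apart from one that passes through the epithelial cells. The labels give no strain, sex or age of the mice. Nor do they state that replicates are separate animals or cultures, and p-values therefore reflect only how much these samples vary, possibly for technical reasons. The comparison asks how hemin changes macrophage transcripts in the presence of TGF-β1.

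In the canonical Wnt pathway, lipid-modified Wnt proteins bind a Frizzled receptor together with the co-receptors Lrp5 or Lrp6, and Dishevelled proteins are recruited to the membrane. A destruction complex built on Axin and Apc, with the kinases Gsk3 and casein kinase 1, otherwise marks β-catenin for degradation. When that complex is held back, β-catenin reaches the nucleus and binds TCF/LEF factors, which displaces Groucho/TLE corepressors from target genes. Other branches run through Frizzled or Ryk to cell polarity and calcium. In the kidney, Wnt and β-catenin signalling is known from injury, repair and fibrosis, and macrophages are a known source of the ligand Wnt7b in renal repair.

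The members spanned more than 4 orders of magnitude in level. Levels are given in FPKM (fragments per kilobase of transcript, scaled to library size by the authors), mean ± SD over n = 5 hemin and n = 6 TGF-β1 libraries. Ctnnb1, which encodes β-catenin, stood at the top with 81.5 ± 2.49 FPKM in hemin libraries and 103.7 ± 6.34 FPKM in TGF-β1 libraries. Only 4 members had a mean of at least 10 FPKM over all 11 libraries: Ctnnb1, the receptor gene Fzd7, the scaffold gene Axin1 and the Wnt carrier gene Wls. In all, 21 members had a mean of at least 1 FPKM, 16 were below 1 FPKM, and 6 stayed below 0.1 FPKM in every library. Ligands lay low throughout, while at least 1 receptor, co-receptor, transducer, destruction complex, nuclear and corepressor gene lay above 1 FPKM.

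**Figure D1:**
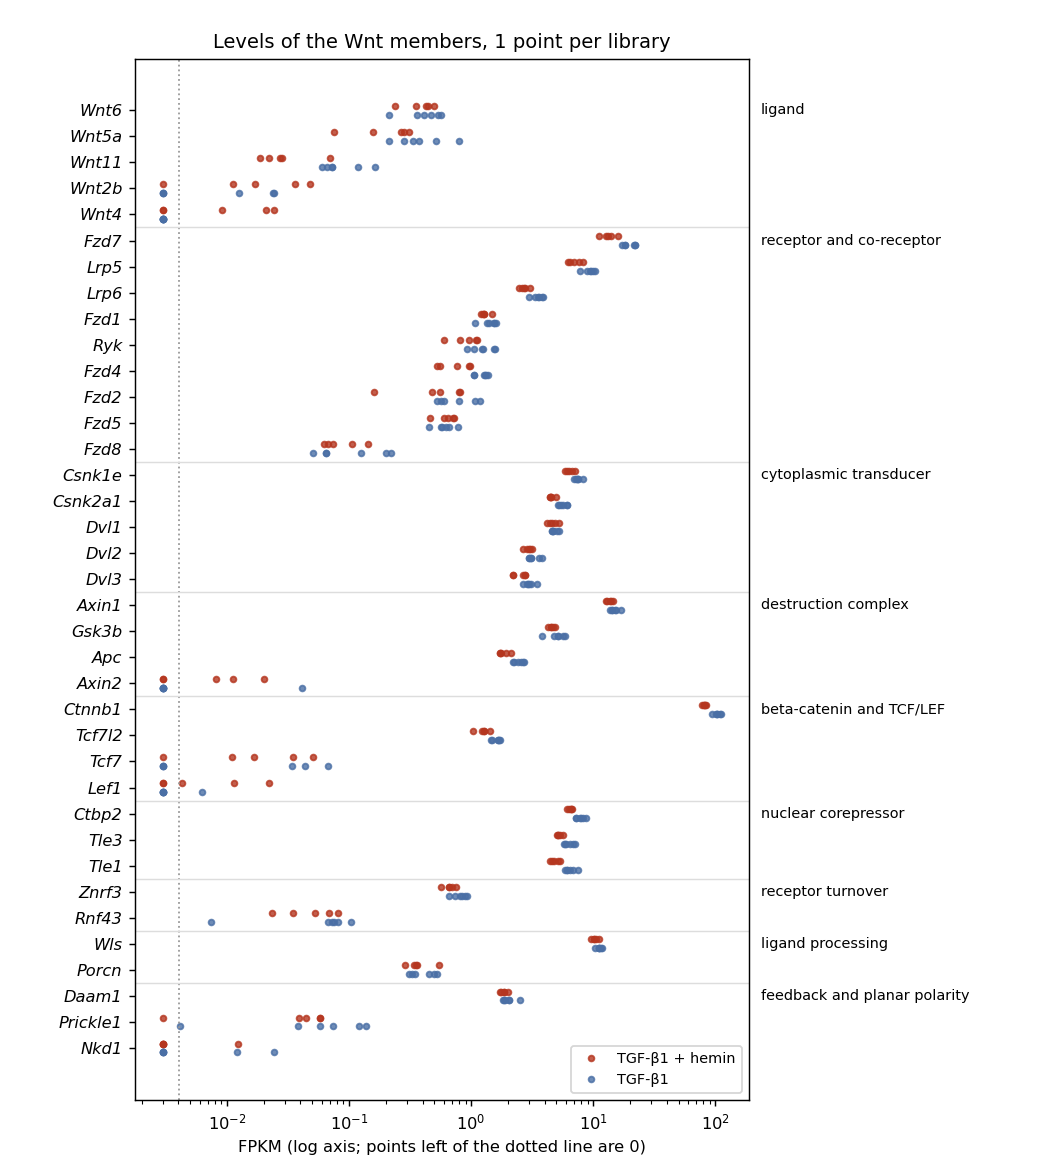
FPKM of each of the 37 members on a log axis, 1 point per library, ordered by role and by mean level within a role (red, TGF-β1 + hemin; blue, TGF-β1; points left of the dotted line are 0). Ctnnb1 lies above all other members, at 77.4 to 84.1 FPKM with hemin and 93.8 to 111.1 FPKM with TGF-β1, and the ligands lie below 1 FPKM in every library.

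Level decided which members could be tested. Of the 37 members, 31 passed the filter on low counts. The 6 that did not were the ligands Wnt2b and Wnt4, the feedback genes Axin2 and Nkd1, and the TCF/LEF genes Tcf7 and Lef1. Axin2 and Nkd1 are known as transcripts that β-catenin switches on, and both were close to absent: Axin2 had 8, 0, 4, 0 and 7 counts in the hemin libraries and 0, 0, 0, 0, 18 and 0 counts in the TGF-β1 libraries, and Nkd1 reached at most 4 counts with hemin and 9 counts with TGF-β1. Such counts allow no comparison at this depth, and a count of 0 allows up to 3 counts, or 0.0311 to 0.0458 CPM (counts scaled to library size) depending on the library, for counting error only. Wnt4 had 7, 0, 8, 4 and 0 counts with hemin and 0 counts in all 6 TGF-β1 libraries. This is too few for a fold. Deposited low counts were also uneven, with 5975 values of exactly 4 in the table, 3763 of 3 and 3415 of 5, so 1 count may be less than 1 sequenced fragment and the limits above are then too low.

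In all, 10 members were lower with hemin and none was higher. These were Fzd4, Fzd7, Lrp5, Lrp6, Apc, Csnk2a1, Ctnnb1, Tcf7l2, Tle1 and Ctbp2, which encode receptors, co-receptors, a scaffold, a kinase subunit, β-catenin, its DNA-binding partner and corepressors. The test was edgeR's quasi-likelihood F test on counts with Benjamini-Hochberg adjustment over all genes tested and a threshold of 0.05 (called adjusted p below), and fold changes are hemin over TGF-β1. Of the 31 members tested, 10 (32.3%) passed in the lower direction, against 5.75% of the 15132 genes tested in the whole table. In the higher direction 0 members passed, against 8.43% of all genes, and in either direction 14.2% of all genes passed. The members were chosen with earlier results of these data known, so these shares describe the list and are no test of it. The 10 genes all lie among the 21 members of at least 1 FPKM. Of the 10397 genes at that level in the table, 7.17% were lower and 11% were higher. At an unadjusted p under 0.05 there were 14 of 31 members, all with a negative fold change, against 11.9% of all genes in that direction and 14% in the other, and DESeq2 and limma called 0 members higher too.

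The changes were small. Among the members that passed, log2 fold changes ran from -0.17 for Ctbp2, which fell by 11.3%, to -0.59 for Fzd4, which fell by 33.5%. Of the 31 members tested, 28 had a log2 fold change below 0, against 50.5% of all genes, and the median was -0.19, against -0.0025 over all genes. The number called depended on the libraries used, as did the share of all genes called lower. Without hemin replicate 5 it was 5 of 31, with 4.50% of all genes lower. Without hemin replicates 5 and 6, the deepest libraries, it was 4 of 32, with 3.58% of all genes lower. Without TGF-β1 replicates 5 and 6 it was 6 of 31, with 4.16% of all genes lower. Fzd7, Apc, Ctnnb1 and Tle1 passed in all 23 alternative analyses, and Lrp6 also passed when any 1 library was left out. In bulk RNA, fewer cells of a type and less RNA per cell cannot be told apart, and this holds for every difference below.

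**Figure D2:**
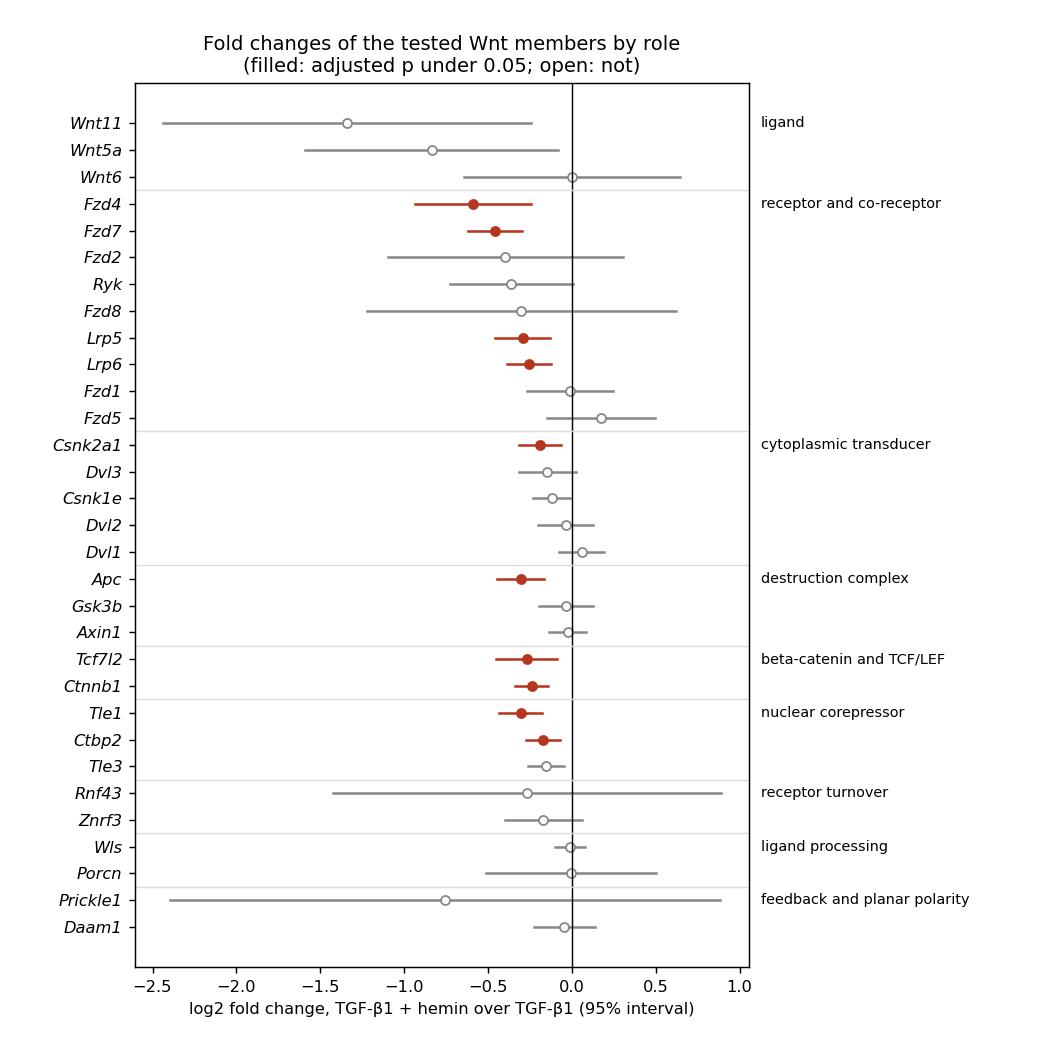
Log2 fold change of TGF-β1 + hemin over TGF-β1 for the 31 members tested, with 95% intervals from edgeR, grouped by role (filled red, adjusted p under 0.05; open grey, not). All 10 filled points lie left of 0, between -0.59 and -0.17, and the widest intervals belong to the lowest genes.

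The genes of ligand release did not pass. Wls, the carrier that takes Wnt proteins to the cell surface, had 10.2, 11.2, 9.57, 10.2 and 10.6 FPKM in the hemin libraries and 11.6, 10.4, 11.1, 11.1, 11.8 and 11.2 FPKM in the TGF-β1 libraries. The groups overlapped, and the log2 fold change was -0.01 with a 95% interval of -0.10 to 0.08, which leaves out a change as large as that of Fzd7. Porcn, the enzyme that attaches the lipid, averaged 0.379 ± 0.0991 FPKM with hemin and 0.409 ± 0.0916 FPKM with TGF-β1, and its interval was wider, from -0.51 to 0.50.

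No ligand passed the test. The most abundant ligand member was Wnt6, at 0.441, 0.496, 0.425, 0.356 and 0.237 FPKM in the hemin libraries and 0.532, 0.214, 0.408, 0.566, 0.359 and 0.465 FPKM in the TGF-β1 libraries. These values were fully interleaved (log2 fold change 0.00, 95% interval -0.64 to 0.64). Wnt5a, the best known ligand of the polarity and calcium branch, had 0.308, 0.156, 0.0748, 0.264 and 0.280 FPKM with hemin and 0.331, 0.377, 0.214, 0.283, 0.512 and 0.794 FPKM with TGF-β1. TGF-β1 replicates 5 and 6 were the highest and hemin replicate 4 the lowest, with 3 of 5 hemin values inside the range of TGF-β1. The log2 fold change of Wnt5a was -0.83 (SE 0.35, unadjusted p = 0.0323, adjusted p = 0.145 by edgeR).

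Wnt11, another ligand of that branch, was near the limit of measurement, with 0.0284, 0.0700, 0.0221, 0.0187 and 0.0274 FPKM in the hemin libraries and 0.0722, 0.0727, 0.119, 0.0605, 0.0664 and 0.163 FPKM in the TGF-β1 libraries. Hemin replicate 3 alone lay within the range of TGF-β1. Wnt11 had a log2 fold change of -1.34 (SE 0.52) that did not pass (edgeR adjusted p = 0.103), and without hemin replicate 3 it did (-1.76, adjusted p = 0.0453). Wnt2b averaged 0.0224 FPKM with hemin and 0.0101 FPKM with TGF-β1 and was not tested. Summed over the 14 Wnt ligands present in the table, members or not, the level was 1.88 ± 0.629 FPKM with hemin and 2.06 ± 0.647 FPKM with TGF-β1, a difference smaller than the spread within either group. Wnt7b, a ligand that is no member, held the largest mean share of that sum, 35.4% with hemin and 27.0% with TGF-β1.

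The summed level of fibroblast markers, most of it Acta2 and Col1a1, moved with part of the ligand and receptor values. Of 8 fibroblast markers, 7 were in the table, and the list level did not differ beyond the threshold (exact permutation p = 0.119, adjusted over 9 lists, 0.268). Their summed FPKM, led by Acta2 and Col1a1, ran from 29.8 to 53.1 with hemin and from 38.4 to 92.8 with TGF-β1, and the highest sums, 73.3 and 92.8, were in TGF-β1 replicates 5 and 6, the libraries highest in Wnt5a, Fzd2 and Fzd8. The lowest sum, 29.8, was in hemin replicate 4, which was also lowest in Wnt5a, Fzd2, Fzd8 and Ryk among hemin libraries. That library was not low in the fibroblast sum alone. Among hemin libraries it also had the lowest summed FPKM of epithelial (3.60), proximal tubule (0.303) and endothelial (0.837) markers. Col1a1 averaged 12.9 ± 3.14 FPKM with hemin and 22.7 ± 9.72 FPKM with TGF-β1 (log2 fold change -0.71, edgeR adjusted p = 0.0583), Col1a2 3.84 ± 0.966 FPKM with hemin and 6.27 ± 2.44 FPKM with TGF-β1 (-0.60, edgeR adjusted p = 0.0840), and Acta2 25.2 ± 6.07 FPKM with hemin and 27.8 ± 9.18 FPKM with TGF-β1 (-0.03). The trace marker Dcn averaged 0.0451 FPKM with hemin and 0.00248 FPKM with TGF-β1. The low markers did not all follow the sum. Pdgfra was highest in hemin replicate 6 (0.155 FPKM), and Dcn (0.0812 FPKM) and Thy1 (0.233 FPKM) were not lowest in hemin replicate 4. Pdgfrb was lowest in hemin replicate 4 (0.550 FPKM) and highest in TGF-β1 replicate 5 (1.43 FPKM), and Thy1 was highest in TGF-β1 replicate 6 (0.526 FPKM). The part of fibroblasts in these values was not tested.

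Receptors and co-receptors held 4 of the 10 members that fell: Fzd7, Fzd4, Lrp5 and Lrp6. Fzd7 was by far the most abundant Frizzled, a membrane receptor for Wnt proteins. Its gene (ENSMUSG00000041075) lies on the plus strand of chromosome 1, at 59521583 to 59526114 in build GRCm39. It had 12.7, 15.9, 11.2, 14.05 and 13.3 FPKM in the hemin libraries and 18.1, 18.3, 17.4, 22.0, 21.7 and 21.9 FPKM in the TGF-β1 libraries. All 5 hemin values lay below the lowest TGF-β1 value. The log2 fold change of Fzd7 was -0.46 (SE 0.08, adjusted p = 0.000529 by edgeR), a fall of 27.3% in scaled counts, smaller than the fall in FPKM. Fzd7 made up 79.1 ± 1.69% of the summed FPKM of the 9 Frizzled genes in the table with hemin and 82.1 ± 1.47% with TGF-β1. That sum was 16.95 ± 2.06 FPKM with hemin and 24.2 ± 2.58 FPKM with TGF-β1.

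The promoter of Fzd7 is shown because this receptor had the smallest adjusted p among the members. The window is the 250 bases before the gene start in RefSeq on GRCm38.p6, an earlier build than that of the deposited coordinates, at chr1:59481897-59482146 on the plus strand. Capitals mark a match to CTTTGT, read on the other strand as ACAAAG, a form of the core that TCF/LEF factors bind.
Fzd7: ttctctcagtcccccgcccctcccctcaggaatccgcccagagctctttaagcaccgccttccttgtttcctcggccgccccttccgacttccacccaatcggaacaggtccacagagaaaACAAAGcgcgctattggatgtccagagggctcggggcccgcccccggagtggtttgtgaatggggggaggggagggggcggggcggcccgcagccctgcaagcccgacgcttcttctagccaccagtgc
For Fzd4, the window at chr7:89404116-89404365 on the plus strand is shown because it had the largest fold change of the members that passed. It holds no match to the motifs searched.
Fzd4: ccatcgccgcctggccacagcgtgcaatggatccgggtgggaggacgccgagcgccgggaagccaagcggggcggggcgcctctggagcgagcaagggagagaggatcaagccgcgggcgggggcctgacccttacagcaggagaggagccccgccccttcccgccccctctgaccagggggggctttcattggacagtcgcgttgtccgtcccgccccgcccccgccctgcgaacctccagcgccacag

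Fzd4, known as the receptor for Norrin as well as Wnt proteins and prominent in vascular endothelium, was lower with hemin at a much lower level than Fzd7. The gene (ENSMUSG00000049791, chromosome 7, 89053563 to 89062342, plus strand, GRCm39) had 0.524, 0.984, 0.769, 0.557 and 0.964 FPKM in the hemin libraries and 1.38, 1.29, 1.05, 1.28, 1.05 and 1.33 FPKM in the TGF-β1 libraries. The groups did not overlap in FPKM, though they did in CPM, and hemin replicates 3 and 6 came close to TGF-β1 replicates 3 and 5. Its log2 fold change was -0.59 (SE 0.16, edgeR adjusted p = 0.0229). The call was lost without hemin replicate 2 (adjusted p = 0.0553) and without hemin replicate 5 (adjusted p = 0.0683).

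Endothelial markers were lower with hemin, as Fzd4 was, though within the groups the order of the libraries differed. The mean log2(FPKM + 1) of Pecam1, Cdh5, Kdr, Tek and Egfl7 was 0.266 with hemin and 0.377 with TGF-β1 (2-sided exact permutation test with 462 arrangements of the 11 libraries, p = 0.00216, the smallest these group sizes allow; adjusted over 9 marker lists, 0.0195). With any 1 TGF-β1 library left out the adjusted value was 0.0714, the smallest that design allows. Their summed FPKM ran from 0.837 to 1.27 with hemin and from 1.44 to 1.88 with TGF-β1. Of the 5 genes, Egfl7 passed the edgeR test, with 0.299 ± 0.0757 FPKM with hemin and 0.528 ± 0.0950 FPKM with TGF-β1. Tek was near absent in both groups and was not tested. It was at 0 in every library but TGF-β1 replicate 5, which had 4 counts. The part of such cells in the Fzd4 result was not tested.

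Lrp5 and Lrp6, the co-receptors that take up the Axin scaffold once Wnt is bound, fell together. Lrp5 (ENSMUSG00000024913, chromosome 19, 3634828 to 3736564, minus strand, GRCm39) had 7.68, 8.17, 6.18, 6.44 and 6.93 FPKM in the hemin libraries and 10.4, 9.52, 7.86, 9.49, 9.93 and 8.82 FPKM in the TGF-β1 libraries. Only hemin replicate 3 reached into the TGF-β1 range, above TGF-β1 replicate 3. The log2 fold change of Lrp5 was -0.29 (SE 0.08, edgeR adjusted p = 0.0164), and without hemin replicate 5 it did not pass (adjusted p = 0.0531). In all, Lrp5 lost its call in 3 of the 23 alternative analyses, at adjusted p-values of up to 0.145.

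Lrp6 (ENSMUSG00000030201, chromosome 6, 134423439 to 134543876, minus strand, GRCm39) had 2.74, 3.05, 2.61, 2.49 and 2.78 FPKM with hemin and 2.97, 3.31, 3.52, 3.87, 3.81 and 3.62 FPKM with TGF-β1. Again 4 of 5 hemin values lay below every TGF-β1 value. Its log2 fold change was -0.25 (SE 0.06, edgeR adjusted p = 0.0111), and it passed with any 1 library left out but not without hemin replicates 5 and 6 (adjusted p = 0.0990) or TGF-β1 replicates 5 and 6 (adjusted p = 0.0640). Lrp5 held 72.1 ± 1.30% of the summed FPKM of the pair with hemin and 72.5 ± 3.06% with TGF-β1, so the balance between them differed by less than the spread of either group.

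The other 5 receptor members did not pass. Fzd1 averaged 1.30 ± 0.103 FPKM with hemin and 1.41 ± 0.193 FPKM with TGF-β1 (log2 fold change -0.01, 95% interval -0.26 to 0.24). Fzd5 averaged 0.631 ± 0.1098 FPKM with hemin and 0.606 ± 0.109 FPKM with TGF-β1, and it had the highest fold change of all members tested (log2 0.17, 95% interval -0.15 to 0.49). Ryk, an atypical Wnt receptor with an inactive kinase domain, had 0.914 ± 0.213 FPKM with hemin and 1.26 ± 0.251 FPKM with TGF-β1 (edgeR adjusted p = 0.205). For Fzd2 and Fzd8 the 95% intervals of the log2 fold change were -1.10 to 0.30 and -1.22 to 0.62, too wide to place them on either side of 0. The levels of Fzd2 were 0.560 ± 0.268 FPKM with hemin and 0.792 ± 0.280 FPKM with TGF-β1, and those of Fzd8 were 0.0905 ± 0.0341 FPKM with hemin and 0.121 ± 0.0746 FPKM with TGF-β1.

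Znrf3 and Rnf43 are membrane E3 ligases that take Frizzled receptors off the surface. Znrf3 had 0.656, 0.755, 0.568, 0.655 and 0.704 FPKM in the hemin libraries and 0.805, 0.655, 0.739, 0.837, 0.892 and 0.927 FPKM in the TGF-β1 libraries. Its groups overlapped through TGF-β1 replicates 2 and 3, and the log2 fold change of -0.17 (SE 0.11) did not pass (edgeR adjusted p = 0.358). Rnf43 was at 0.0520 ± 0.0234 FPKM with hemin and 0.0681 ± 0.0324 FPKM with TGF-β1.

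Among the cytoplasmic transducers, 1 of 5 members fell. Csnk2a1, the catalytic α subunit of casein kinase 2, which phosphorylates Dishevelled and β-catenin among many substrates, had 4.95, 4.40, 4.51, 4.52 and 4.39 FPKM with hemin and 5.12, 5.24, 6.05, 5.61, 6.12 and 5.45 FPKM with TGF-β1 (ENSMUSG00000074698, chromosome 2, 152068759 to 152123772, plus strand, GRCm39). Every hemin value was below every TGF-β1 value in FPKM, though not in CPM. The log2 fold change was -0.19 (SE 0.06, edgeR adjusted p = 0.0423). This call is fragile: it was lost without TGF-β1 replicate 3, 4 or 5 and without hemin replicate 3, 4, 5 or 6, with adjusted p-values of 0.0585 to 0.107.

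Csnk1e, casein kinase 1ε, a Dishevelled kinase and the most abundant transducer among the members, had 6.07, 7.15, 5.90, 6.28 and 6.69 FPKM in the hemin libraries and 7.27, 7.02, 7.52, 7.40, 8.32 and 7.53 FPKM in the TGF-β1 libraries. Hemin replicate 3 lay above TGF-β1 replicate 2, and the other 4 lay below all TGF-β1 values. It did not pass on counts (log2 fold change -0.12, SE 0.05, edgeR adjusted p = 0.159), whereas limma on log2(FPKM + 1) called it (log2 fold change -0.20, adjusted p = 0.0175). On the FPKM scale the median of all genes was itself -0.09. Falls read from FPKM are thus larger than the edgeR fold changes by about that much, and rises are smaller.

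Dishevelled genes, shared by several Wnt branches, did not pass. Dvl1 averaged 4.64 ± 0.402 FPKM with hemin and 4.80 ± 0.284 FPKM with TGF-β1 (log2 fold change 0.06, 95% interval -0.08 to 0.19). Dvl3 averaged 2.51 ± 0.285 FPKM with hemin and 2.99 ± 0.262 FPKM with TGF-β1 (-0.15, 95% interval -0.32 to 0.02). Dvl2 had 2.95 ± 0.179 FPKM with hemin and 3.26 ± 0.358 FPKM with TGF-β1 (-0.04, 95% interval -0.20 to 0.13), but 2119 bases of it overlap Acadvl on the opposite strand, which had 4627 counts per library on average beside 1560 for Dvl2, and the strand setting of the counting is not given.

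Among the destruction complex members tested, the scaffold Apc fell while Axin1 and Gsk3b did not pass. Of 16 other genes of the complex and of β-catenin turnover, Csnk1a1 and Amer1 (12.5%) were lower, against 5.75% of all genes. Ppp2r5a (6.25%) was higher, against 8.43% of all genes. Apc (ENSMUSG00000005871, chromosome 18) had 1.71, 2.12, 1.77, 1.74 and 1.94 FPKM in the hemin libraries and 2.24, 2.203, 2.54, 2.67, 2.74 and 2.44 FPKM in the TGF-β1 libraries. No hemin value reached the lowest TGF-β1 value. Its log2 fold change was -0.31 (SE 0.06, edgeR adjusted p = 0.00397).

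Axin1, the scaffold whose amount is thought to limit the complex, had 12.8, 14.6, 13.8, 13.1 and 14.1 FPKM with hemin and 15.5, 13.7, 14.3, 16.9, 15.1 and 14.4 FPKM with TGF-β1. The groups overlapped, with a log2 fold change of -0.02 and a 95% interval of -0.13 to 0.09. Gsk3b, the kinase that marks β-catenin, averaged 4.59 ± 0.222 FPKM with hemin and 5.08 ± 0.744 FPKM with TGF-β1 (-0.03, 95% interval -0.20 to 0.13). Its paralogue Gsk3a, no member, was more abundant, at 43.5 ± 2.01 FPKM with hemin and 42.9 ± 3.43 FPKM with TGF-β1. Gsk3a did not pass either (log2 fold change 0.13, edgeR adjusted p = 0.193). The intervals of Axin1 and Gsk3b both end short of the estimate for Apc, although the difference between the genes was not itself tested. Of the summed FPKM of Axin1 and Axin2, Axin1 held 99.9% with hemin and 100% with TGF-β1, as rounded.

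Ctnnb1, the gene of β-catenin, which joins cadherins at cell contacts as well as TCF/LEF factors in the nucleus, was lower in every hemin library. It (ENSMUSG00000006932, chromosome 9, 120758282 to 120789573, plus strand, GRCm39) had 81.5, 81.5, 84.1, 77.4 and 82.7 FPKM with hemin and 102.7, 93.8, 111.1, 110.1, 101.6 and 103.0 FPKM with TGF-β1. The gap between the highest hemin and the lowest TGF-β1 library was larger than the range of the hemin group. The log2 fold change of Ctnnb1 was -0.24 (SE 0.05, edgeR adjusted p = 0.00193), a fall of 15.3% in scaled counts, smaller than the fall in FPKM. It rests on the deepest data of all members, 30347 to 43918 counts per hemin library and 35367 to 42059 counts per TGF-β1 library.

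RefSeq lists overlapping start windows for Ctnnb1, and both are printed because they lie before the most abundant member. They are at chr9:120933150-120933399 and chr9:120933328-120933577 on the plus strand of GRCm38.p6. Capitals in the second window mark the letters GCCGCGTCA, a match on the other strand to TGACNNNGC, the core of the antioxidant response element, which the factors Nrf2 and Bach1 are known to bind.
Ctnnb1 window 1: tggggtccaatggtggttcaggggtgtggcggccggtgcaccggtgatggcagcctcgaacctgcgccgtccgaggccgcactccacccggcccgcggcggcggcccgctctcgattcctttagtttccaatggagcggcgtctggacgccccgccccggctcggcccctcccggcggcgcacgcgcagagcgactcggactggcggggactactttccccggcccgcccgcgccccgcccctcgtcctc
Ctnnb1 window 2: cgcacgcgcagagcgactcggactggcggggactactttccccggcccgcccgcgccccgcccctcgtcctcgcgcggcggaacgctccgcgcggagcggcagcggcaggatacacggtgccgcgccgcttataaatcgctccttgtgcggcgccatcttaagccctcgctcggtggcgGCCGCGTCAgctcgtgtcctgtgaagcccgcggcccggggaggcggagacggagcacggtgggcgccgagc
The Tle1 window, at chr4:72200894-72201143 on the minus strand, is shown because Tle1 was the other member that passed in every alternative analysis and has a window in the table, and it holds no match.
Tle1: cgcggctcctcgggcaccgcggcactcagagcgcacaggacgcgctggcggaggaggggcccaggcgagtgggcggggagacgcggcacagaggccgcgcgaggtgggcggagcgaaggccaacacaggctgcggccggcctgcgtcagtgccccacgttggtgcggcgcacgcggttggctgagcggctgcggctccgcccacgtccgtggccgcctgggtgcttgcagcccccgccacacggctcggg

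Epithelial markers, among them Cdh1, which encodes the β-catenin partner E-cadherin, were read from 6 genes. Their summed FPKM ran from 3.60 to 9.90 with hemin and from 8.10 to 15.2 with TGF-β1, and the list level did not pass (exact permutation p = 0.0974, adjusted over 9 lists, 0.268). Cdh1 itself fell, at 1.95 ± 0.431 FPKM with hemin and 5.39 ± 0.766 FPKM with TGF-β1 (log2 fold change -1.36, SE 0.13, edgeR adjusted p = 1.77e-06), and Krt19 fell as well. The others did not pass: Cldn4 averaged 1.94 FPKM with hemin and 1.87 FPKM with TGF-β1, Krt8 1.81 FPKM with hemin and 1.98 FPKM with TGF-β1, and Krt18 0.916 FPKM with hemin and 1.13 FPKM with TGF-β1, and Epcam, at 0.0159 FPKM with hemin and 0.0546 FPKM with TGF-β1, was not tested. Their part in the Ctnnb1 result was not tested.

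Tcf7l2 was the only TCF/LEF member with more than trace levels, and it was lower with hemin. The gene (ENSMUSG00000024985, chromosome 19, 55730252 to 55921685, plus strand, GRCm39) had 1.24, 1.42, 1.03, 1.27 and 1.27 FPKM in the hemin libraries and 1.46, 1.66, 1.66, 1.496, 1.71 and 1.70 FPKM in the TGF-β1 libraries. The groups did not overlap in FPKM, with hemin replicate 3 just under TGF-β1 replicate 1, though they did in CPM. Its log2 fold change was -0.27 (SE 0.08, edgeR adjusted p = 0.0443). The margin is thin: the call was lost without TGF-β1 replicate 2, 3, 5 or 6 and without hemin replicate 2, 4, 5 or 6, at adjusted p-values of 0.0728 to 0.117. Tcf7l2 held 90.9 ± 3.23% of summed TCF/LEF FPKM with hemin and 92.4 ± 3.46% with TGF-β1. Tcf7 had at most 12 counts with hemin and 16 counts with TGF-β1, and Lef1 had at most 20 counts with hemin and 4 counts with TGF-β1.

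Corepressors fell in 2 of 3 members, and the third was just outside. Tle1, a Groucho family protein that TCF/LEF factors bind when β-catenin is absent, had 4.64, 5.32, 4.42, 5.12 and 4.78 FPKM in the hemin libraries and 6.09, 5.82, 6.09, 7.49, 6.86 and 6.47 FPKM in the TGF-β1 libraries (ENSMUSG00000008305, chromosome 4, 72036042 to 72119130, minus strand, GRCm39). The groups were separate. Its log2 fold change was -0.31 (SE 0.06, edgeR adjusted p = 0.00214).

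Tle3, of the same family, had 5.66, 5.17, 5.05, 5.19 and 5.33 FPKM with hemin and 5.79, 6.04, 5.87, 7.06, 6.41 and 6.87 FPKM with TGF-β1. These groups did not overlap in FPKM either, though they did in CPM. The log2 fold change of Tle3, -0.15 (SE 0.05), missed the threshold (edgeR adjusted p = 0.0572). It passed without TGF-β1 replicate 1 or 3 or hemin replicate 2, at adjusted p-values of 0.0348 to 0.0397. Tle1, Tle2, Tle3 and Tle4 together summed to 15.03 ± 0.739 FPKM with hemin and 17.9 ± 1.604 FPKM with TGF-β1. That sum leaves out Tle5 and Tle6, which are no members. Tle5 was far more abundant, at 172.4 ± 12.3 FPKM with hemin and 165.2 ± 11.3 FPKM with TGF-β1. It did not pass (log2 fold change 0.17, edgeR adjusted p = 0.135). Tle6 was higher with hemin (0.68, edgeR adjusted p = 0.00550), so a fall of the whole family was not shown.

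Ctbp2, a corepressor that binds NADH and acts beside TLE proteins, had 6.53, 6.63, 6.16, 6.34 and 6.67 FPKM in the hemin libraries and 7.25, 7.19, 8.18, 8.73, 7.94 and 7.85 FPKM in the TGF-β1 libraries (ENSMUSG00000030970, chromosome 7, 132589292 to 132725585, minus strand, GRCm39). The groups did not overlap. The log2 fold change of Ctbp2 was -0.17 (SE 0.05, edgeR adjusted p = 0.0237), and it did not pass without TGF-β1 replicate 3 or 4 or hemin replicate 4 or 5 (adjusted p 0.0520 to 0.0582). Its paralogue Ctbp1, no member, was more abundant, so Ctbp2 held 15.4% of their summed FPKM with hemin and 16.3% with TGF-β1. Ctbp1 itself did not pass (log2 fold change -0.08, edgeR adjusted p = 0.316).

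**Figure D3:**
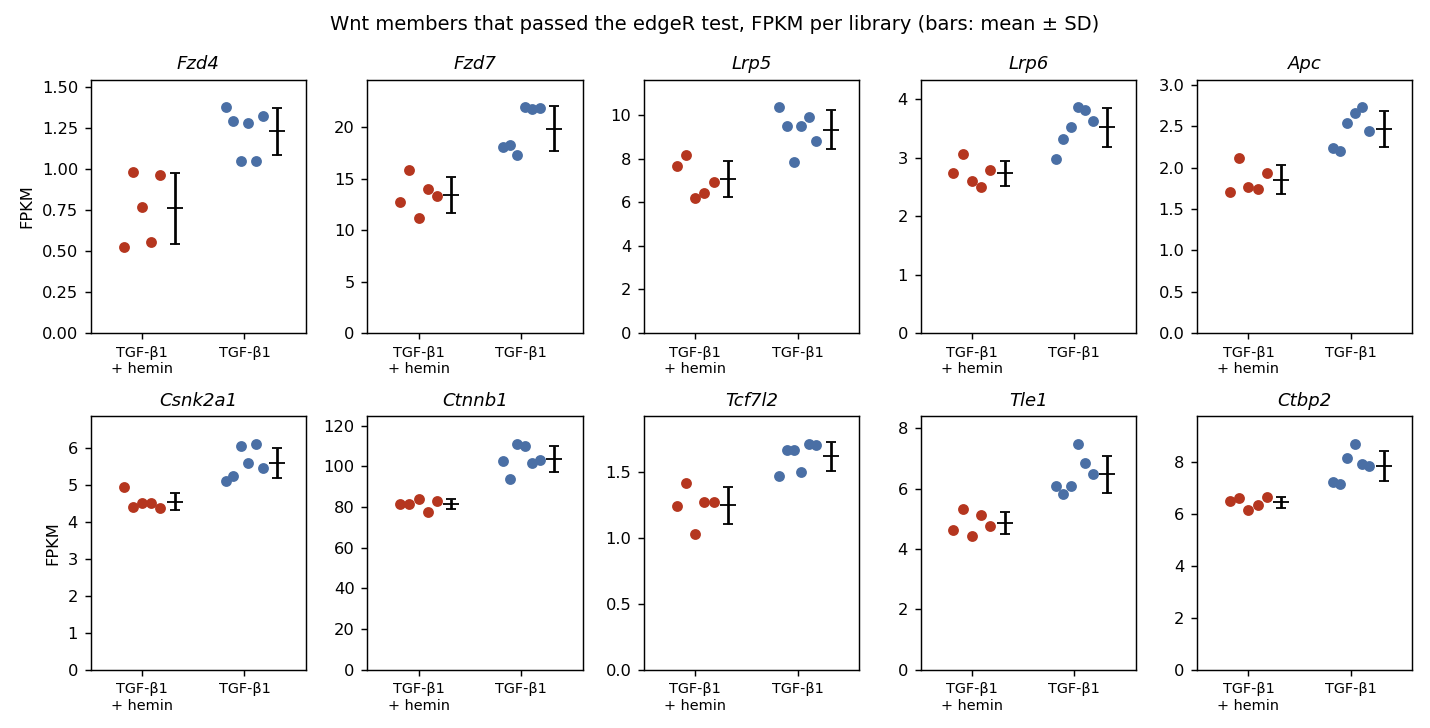
FPKM per library of the 10 members that passed the edgeR test (red, TGF-β1 + hemin, n = 5; blue, TGF-β1, n = 6; bars, mean ± SD; axes start at 0). The groups are separate for all genes shown but Lrp5 and Lrp6, where 1 hemin library each lies within the TGF-β1 range.

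On the FPKM scale 9 of the 31 members tested (the 10 that passed without Lrp5 and Lrp6, and Tle3) had every hemin value below every TGF-β1 value, against 8.75% of all genes tested. The reverse held for 0 members and 3.65% of all genes. On the CPM scale, which carries the library scaling of the test, 5 members did: Fzd7, Apc, Ctnnb1, Tle1 and Ctbp2. The share of all genes was 3.93% on that scale, and 6.29% in the reverse direction, which no member showed.

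The feedback and polarity members with measurable levels did not pass. Daam1, a formin of the polarity branch, had 1.72, 1.84, 1.86, 1.76 and 1.99 FPKM in the hemin libraries and 2.06, 1.83, 1.91, 2.06, 2.54 and 1.86 FPKM in the TGF-β1 libraries. Those ranges overlapped (log2 fold change -0.04, 95% interval -0.22 to 0.14). Prickle1, a core polarity protein, was at 0.0399 ± 0.0238 FPKM with hemin and 0.0723 ± 0.0506 FPKM with TGF-β1, with an interval of -2.40 to 0.88 that bounds nothing useful.

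**Figure D4:**
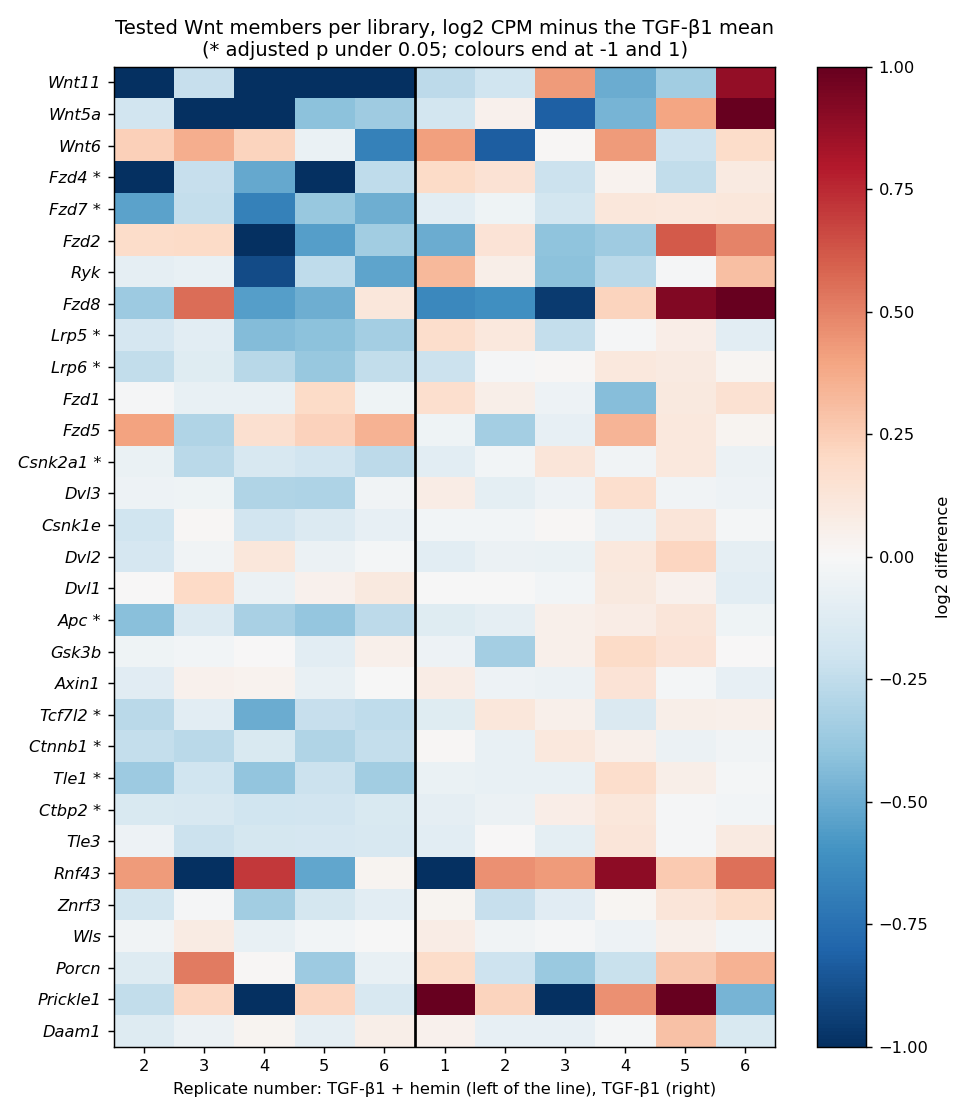
Log2 CPM minus the TGF-β1 mean in each library for the 31 members tested (columns left of the line, TGF-β1 + hemin replicates 2 to 6; right, TGF-β1 replicates 1 to 6; blue lower, red higher, colours end at -1 and 1). Members marked with * (adjusted p under 0.05) are blue across all hemin columns, whereas the deepest red cells of Wnt5a, Fzd2 and Fzd8 are in TGF-β1 replicates 5 and 6.

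Other Wnt genes, as listed here, were called about as often as genes at large when both directions were counted together. A list of 109 other Wnt genes had 93 in the table and 71 tested, of which 10 (14.1%) passed, against 14.2% of all genes. Of these, 6 (8.45%) were lower, against 5.75% of all genes, and 4 (5.63%) were higher, against 8.43%. Their median log2 fold change was -0.06. The lower ones were Csnk1a1 and Amer1 of β-catenin turnover, the β-catenin co-activator Bcl9, the chromatin remodeller Smarca4, the calcium branch kinase Prkca and the cyclin gene Ccnd1. The higher ones were the secreted protein Dkk3, the phosphatase subunit Ppp2r5a, and Cd44 and Met. Limma on log2(FPKM + 1) called 17 of 41, of which 15 were lower and 2 higher, but the same fit called 20.8% of all genes lower and 6.52% higher.

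Known β-catenin target genes were split. Ccnd1, which drives entry into the cell cycle, fell, at 46.5 ± 2.36 FPKM with hemin and 62.1 ± 2.88 FPKM with TGF-β1 (log2 fold change -0.31, SE 0.04, edgeR adjusted p = 0.000134). Cd44, a hyaluronan receptor, rose, at 35.5 ± 0.460 FPKM with hemin and 31.6 ± 2.24 FPKM with TGF-β1 (0.28, SE 0.04, edgeR adjusted p = 0.000268). Met, the receptor for hepatocyte growth factor, rose as well, at 2.62 ± 0.269 FPKM with hemin and 1.56 ± 0.255 FPKM with TGF-β1 (0.86, SE 0.10). Of 8 targets tested, these were the 3 that passed. That is 12.5% lower, against 5.75% of all genes, and 25% higher, against 8.43%, in a list too short to compare shares.

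Among the other lists, Bcl9 was at 1.48 ± 0.172 FPKM with hemin and 2.15 ± 0.216 FPKM with TGF-β1 (log2 fold change -0.43, SE 0.09, edgeR adjusted p = 0.00235). Prkca was at 0.416 ± 0.00504 FPKM with hemin and 0.670 ± 0.0516 FPKM with TGF-β1 (-0.57, SE 0.10). The related kinase gene Prkcb, outside these lists and more abundant, was higher with hemin (0.28, SE 0.06, edgeR adjusted p = 0.00249). Dkk3, of the Dickkopf family of secreted Wnt modulators, was at 0.654 ± 0.255 FPKM with hemin and 0.352 ± 0.137 FPKM with TGF-β1 (1.00, SE 0.29, edgeR adjusted p = 0.0319). Of 4 secreted and membrane inhibitors tested, Dkk3 alone passed. Other Wnt ligands, other receptors and the R-spondin group had no call, with Wnt7b at 0.736 ± 0.467 FPKM with hemin and 0.589 ± 0.310 FPKM with TGF-β1, Lrp4 at 0.292 FPKM with hemin and 0.320 FPKM with TGF-β1, and Lgr6 at 0.115 FPKM with hemin and 0.247 FPKM with TGF-β1.

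The deposited table's own KEGG annotation gives the Wnt pathway to 148 genes, 36 of them members. Without the members, 90 were tested, of which 11 (12.2%) were lower, against 5.75% of all genes, and 4 (4.44%) were higher, against 8.43%. Of these 90, 45 are also in the list above.

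**Figure D5:**
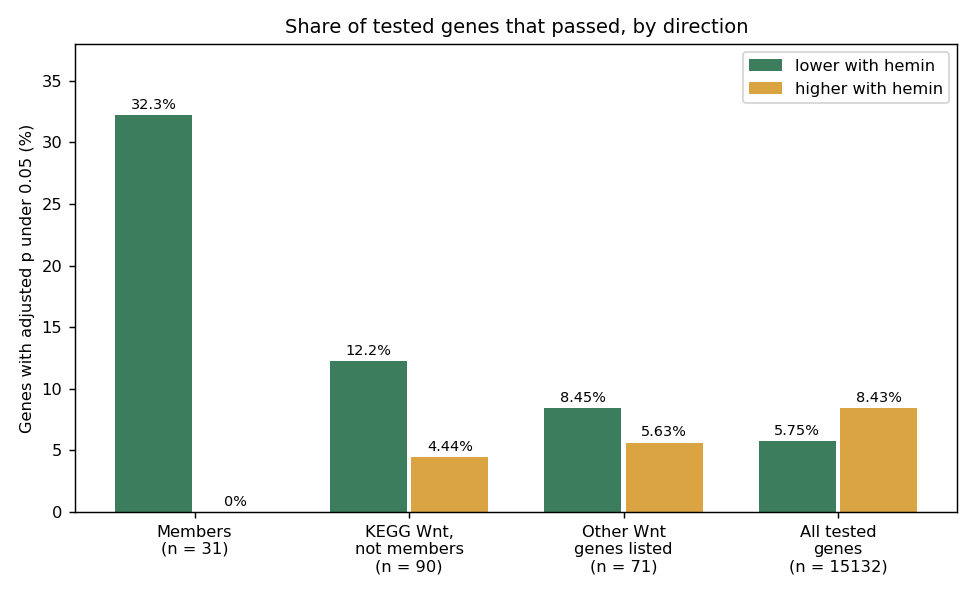
Percentage of tested genes with an edgeR adjusted p under 0.05, lower (green) or higher (yellow) with TGF-β1 + hemin than with TGF-β1, for the members, the other genes annotated to the KEGG Wnt pathway, the other Wnt genes listed, and all genes. The members stand at 32.3% lower and none higher, beside 12.2% and 8.45% lower in the other Wnt groups and 5.75% lower over all genes. The members and the other Wnt genes listed were chosen with earlier results of these data known.

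Promoter windows were searched for the letters of the motifs marked above. RefSeq (GRCm38.p6) windows were found for 28 of the 37 members, 42 windows in all, and for 7 of the 10 that passed, 10 windows. The TCF/LEF core letters CTTTGA and CTTTGT and the antioxidant response core TGACNNNGC were searched on both strands of the 250 bases, where CTTTGA and CTTTGT share all letters but the last. CTTTGA was in 13.8% of 32851 windows and, of the members that passed, in Ctbp2. CTTTGT was in 16.5% of windows and in Ctbp2, Fzd7 and Tcf7l2. TGACNNNGC was in 10.2% of windows and in Csnk2a1 and Ctnnb1, and over all member windows in 8 of 42 (19.05%), some of which overlap. A match is a description of letters only.

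The libraries carried the labelled cell type. Total counts were 66.7 to 96.6 M with hemin and 65.5 to 71.5 M with TGF-β1. All 10 macrophage markers were in the table, with summed FPKM of 5010 to 5849 with hemin and 4205 to 6167 with TGF-β1, led by Lyz2. Proximal tubule markers summed to at most 1.55 FPKM in any library, T cell markers to 0.107 FPKM, B cell markers to 0.586 FPKM and dendritic cell markers to 0.290 FPKM. The neutrophil list, nearly all S100a8, summed to 4.85 to 6.17 FPKM with hemin and 5.83 to 7.59 FPKM with TGF-β1 (exact permutation p = 0.0195, adjusted over 9 lists, 0.0877).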

How the data were processed

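RNA of 11 macrophage libraries was measured, 5 with TGF-β1 and hemin and 6 with TGF-β1, grouped by the prefix of their titles read with the design text. Per the labels' protocols, RNA was selected for poly(A) and the second cDNA strand was marked with uracil, which keeps strand. Per the submitters' processing notes, HISAT2 2.2.1 and StringTie 2.1.6 were used, with cutadapt 1.9 and FastQC 0.11.9, DESeq2 and build GRCm39. Which step made the counts, with which annotation and strand setting, is not given in the sources used here. What the authors deposited are whole-number counts per gene, not normalized, and FPKM values. In the deposited counts, values of 4 (5975) outnumber those of 3 (3763) and 5 (3415), and 8 (3318) those of 7 (2092) and 9 (2110), so a count may not be 1 fragment.

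Counts were tested with the quasi-likelihood F test of edgeR 4.0.16 under R 4.3.3. The model had a term for group, TMM scaling, and a filterByExpr filter (minimum count 10, minimum total 15). It tested 15132 genes, 2-sided, with Benjamini-Hochberg adjustment over all of them. The standard error is the log2 fold change over the square root of F. CPM are counts scaled to TMM-adjusted totals. Total counts were 65.5 to 96.6 M, and intervals on low counts cover counting error only. All library pairs of the same group differed by more than sampling noise (chi-square per degree of freedom of at least 27), so none was counted as a copy.

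Per-library values are printed for the members that passed and for the most abundant member of each role. Of the other Wnt genes, up to 3 per list that passed are named, or the most abundant where none did, and of the marker lists mainly the most abundant. Any further gene was named with its values in view. The members and all lists were chosen with earlier results of these data known. The alternatives tried were no filter, DESeq2 1.42.0 and its size factors within edgeR, counts thinned to the smallest total, limma 3.58.1 on log2(FPKM + 1) and log2(FPKM + 0.1), with FPKM of at least 1 in 5 libraries, with no filter and with median-of-ratios scaling, a block for the replicate number, leaving out each library in turn, and the deepest hemin libraries left out. Counts divided by 4, and the fit without TGF-β1 replicates 5 and 6, were added after seeing the data. Sequences are from RefSeq (GRCm38.p6) and deposited gene coordinates from GRCm39.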

Additional observations from a re-analysis of the deposited data

Results flagged for a closer look

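Of 62 member and group combinations, 4 held a library whose distance to its nearest neighbour was large for the range of its group, and chance alone marks about 1 in 20. Wnt11 in hemin replicate 3 had 0.0700 FPKM, where the next highest hemin library had 0.0284 FPKM, and the Wnt11 fold change passed without that library. Csnk2a1 in hemin replicate 2 had 4.95 FPKM, with the next highest at 4.52 FPKM, still below every TGF-β1 library. Porcn in hemin replicate 3 had 0.549 FPKM, with the next highest at 0.364 FPKM. Daam1 in TGF-β1 replicate 5 had 2.54 FPKM, with the next highest at 2.06 FPKM.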

How the results depend on the processing

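All 10 members that passed kept a log2 fold change below 0 in each of the 23 alternatives, and no member tested passed in the higher direction in any. Fzd7, Apc, Ctnnb1 and Tle1 passed in all 23. The number of members called was 11 with DESeq2, with its size factors in edgeR and with counts divided by 4 (an alternative added after seeing the data), 9 with thinned counts, 7 with no filter, and 9 to 12 with limma on FPKM. It was 5 to 11 when 1 library was left out, 4 without the 2 deepest hemin libraries, and 6 without TGF-β1 replicates 5 and 6 (also added after seeing the data). The cause was not tested, beyond the smaller number of libraries. Other Wnt genes called were 17 with limma on log2(FPKM + 1) and 17 on log2(FPKM + 0.1), where the median of all genes was -0.09 and -0.10 on the log2 scale, and 7 to 15 in the other alternatives, 8 to 12 with 1 library left out. Limma on FPKM + 1 without scaling called 20.8% of all genes lower and 6.52% higher, against 7.68% and 11.2% with median-of-ratios scaling, so the share of members lower must be read against those.

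Replicate numbers are shared by the groups, but libraries of the same number did not deviate together (correlations of -0.18 to 0.178), and not every library correlated best with its own number. With the replicate number as a block, 7 members were called, 6 of them among the 10, and Wnt5a also passed (log2 fold change -0.90, edgeR adjusted p = 0.0381). Other Wnt genes called were 9 under the block, and calls over all genes 1543 in place of 2146.

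Levels limit the reading of 6 members with at most 20 counts in any library, and of Wnt5a, Wnt11, Fzd2, Fzd8, Rnf43, Prickle1 and Porcn, whose intervals are wide.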

Other observations

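Genes that the deposited table annotates to the Wnt pathway, but that are no members, included falls larger than any among the members that passed (names chosen after their values were seen). Ccnd2, a D-type cyclin, had 1.37 ± 0.305 FPKM with hemin and 3.60 ± 0.339 FPKM with TGF-β1 (log2 fold change -1.28, SE 0.12, edgeR adjusted p = 1.57e-06). Frat1 and Frat2, which encode proteins that bind Gsk3, both fell: Frat1 was at 0.332 ± 0.0520 FPKM with hemin and 0.712 ± 0.220 FPKM with TGF-β1 (-0.99, SE 0.25, adjusted p = 0.0123), and Frat2 at 0.608 ± 0.149 FPKM with hemin and 1.03 ± 0.177 FPKM with TGF-β1 (-0.65, SE 0.21, adjusted p = 0.0499). Smad3, a transducer of TGF-β signalling that the annotation also lists, had 1.32 ± 0.0618 FPKM with hemin and 2.31 ± 0.405 FPKM with TGF-β1 (-0.70, SE 0.11, adjusted p = 0.000413).

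The annotated genes that were higher with hemin were Rac2, Prkcb, Ppp3r1 and Tle6. Tle6, an atypical Groucho family member, was at 1.88 ± 0.202 FPKM with hemin and 1.255 ± 0.277 FPKM with TGF-β1 (0.68, SE 0.15, adjusted p = 0.00550). Rac2, a small GTPase of blood cells, was at 88.5 ± 5.25 FPKM with hemin and 78.6 ± 2.69 FPKM with TGF-β1 (0.28, SE 0.05, adjusted p = 0.00201). Within the calcium branch, Ppp3cb and Nfatc3, a calcineurin subunit and its target, were lower (-0.26 and -0.20), while the regulatory subunit Ppp3r1 was higher (0.14, adjusted p = 0.0496). The kinase gene Prkcb was higher too, at 4.86 ± 0.325 FPKM with hemin and 4.32 ± 0.292 FPKM with TGF-β1.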
